A study of Mus musculus with 9 samples.

Results

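Reactive oxygen species in the heart are made by NADPH oxidases, among other sources, and are removed by superoxide dismutases, catalase and the glutathione system. The genes described here are 10 enzymes of these pathways. Nox4 and Cybb encode catalytic subunits of NADPH oxidases, which pass electrons from NADPH to oxygen. Sod1, Sod2 and Sod3 encode superoxide dismutases, which turn superoxide into hydrogen peroxide, and Cat encodes catalase, which breaks hydrogen peroxide down. Hmox1, Nqo1, Gclc and Gclm encode haem oxygenase 1, a quinone reductase and both subunits of the enzyme that limits glutathione synthesis, and all 4 are known targets of the transcription factor NRF2. The members were all probe sets whose symbol in the platform's annotation was exactly 1 of these 10 names. This gave 24 of the 34945 probe sets that name a single gene, and 10 of 18193 genes.

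Right ventricle myocardium was taken from male C57BL6J mice, 6 to 8 weeks old, with 5 arrays after pulmonary banding and 4 arrays after a sham operation. Banding narrows the pulmonary artery so that the right ventricle pumps against a raised pressure, and sham animals undergo surgery without the narrowing. The design text calls the mice wild type in both groups. How long after surgery the tissue was taken is not stated in these sources. Replicates carry numbers, with no statement that each is a separate animal. The p-values thus weigh a difference against the spread between arrays, which may not be a spread between animals.

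Values are log2 expression per probe set on single-channel Affymetrix arrays, and a difference is banding minus sham in log2 units. A probe set was called when its adjusted p in limma, over all 34945 probe sets, was under 0.05. The lowest value in the table was 2.198. A group mean below 4.198, or 2 log2 units more, was treated as dim, and a fold against a dim group is a lower bound. Array medians lay between 3.23 and 3.31. The ventricular myosin gene Myh6 averaged 16.23 ± 0.09 (SD, n = 5) in banding and 16.36 ± 0.03 (SD, n = 4) in sham, near the top of the scale at 16.43. Liver transcripts stood apart between the arrays. The mean log2 level of 15 liver markers ran from 2.89 to 4.77 on the banding arrays and from 8.62 to 12.66 on the sham arrays, with sham replicate 4 the highest and banding replicate 5 the highest of its group. All 15 were called lower in banding. Their part in the results below was not tested, and values without these 2 arrays are given for some results. Without them the liver means were still 8.62 to 9.99 in sham and 2.89 to 3.21 in banding. Such values therefore do not take away the liver difference between the groups.

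Of the 10 genes, each taken at its brightest probe set, 4 rose, 2 fell and 4 were not called. All 10 lay above the dim level in at least 1 group, and of the 11013 genes that did so, 60.4% were called, 29% higher and 31.4% lower in banding, so the count of members called is at the background. Over all 18193 genes, dim ones included, 37.4% were called, 17.9% higher and 19.4% lower. Nox4, Cybb, Hmox1 and Sod3 rose, and Sod1 and Sod2 fell. The groups did not overlap in these 6 genes, a share also near the background of 58.7% of genes above the dim level (36.7% of all genes). Nqo1, Gclc, Gclm and Cat were not called. Over the 24 probe sets, 8 were higher, 7 were lower and 9 were not called, and only 1 of the 24 was dim in both groups. The background among probe sets above the dim level in a group was 56.1% called, 27.3% higher and 28.8% lower, and 31.4% of all probe sets were called. The groups did not overlap at 15 of the 24, against 54.2% of probe sets above the dim level and 30.7% of all. The counts of 6 genes and 15 probe sets were also found without sham replicate 4 and banding replicate 5.

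**Figure D1:**
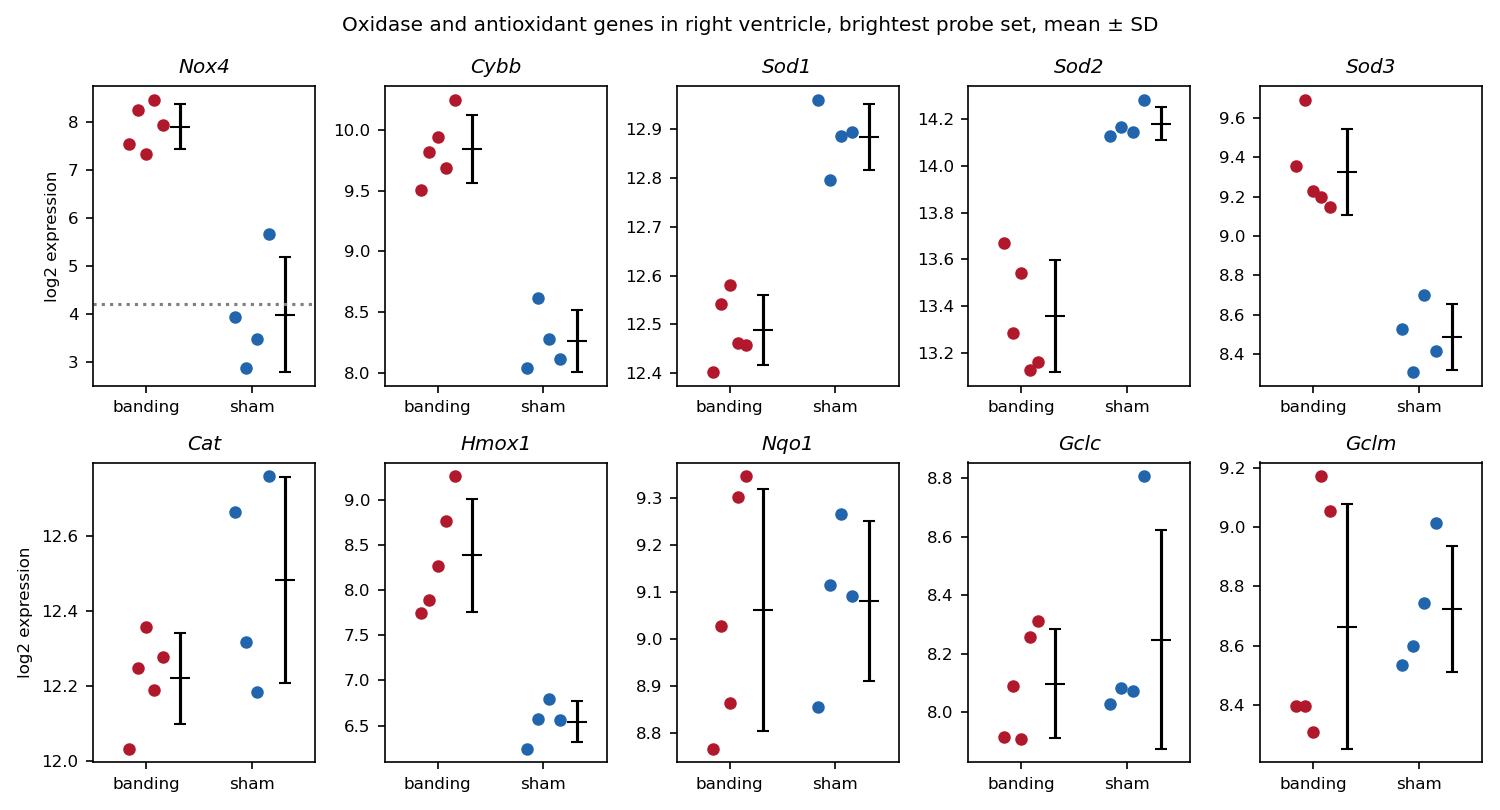
Log2 expression of the 10 genes at the brightest probe set on each array, banding (red, 5 arrays) left of sham (blue, 4 arrays), with the group mean and SD in black and a separate vertical scale for each gene; the dotted line in the Nox4 panel is the dim level of 4.198. The groups are apart in Nox4, Cybb, Sod1, Sod2, Sod3 and Hmox1 and overlap in Cat, Nqo1, Gclc and Gclm.

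Upstream sequence is shown for Nox4 and Cybb, the oxidase genes that rose together, and for Sod1 and Sod2, the dismutase genes that fell together. Each run is the 250 bases before the start that the promoter table gives, 5′ to 3′ on the gene's strand, from RefSeq on GRCm38.p6. For Nox4 and Cybb this start is not the outermost one, since other annotated transcripts of these genes begin farther upstream. Capitals mark matches on either strand to the GC box GGGCGG, the TATA box TATAAA and the antioxidant response element core TGACNNNGC, to which NRF2 is known to bind.
Nox4, chr7:87246399-87246648, plus strand: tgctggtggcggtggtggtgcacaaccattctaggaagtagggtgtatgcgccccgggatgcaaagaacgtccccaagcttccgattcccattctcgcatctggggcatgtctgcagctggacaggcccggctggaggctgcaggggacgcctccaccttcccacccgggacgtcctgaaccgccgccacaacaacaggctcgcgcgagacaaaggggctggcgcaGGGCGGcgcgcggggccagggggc
Cybb, chrX:9469325-9469574, minus strand: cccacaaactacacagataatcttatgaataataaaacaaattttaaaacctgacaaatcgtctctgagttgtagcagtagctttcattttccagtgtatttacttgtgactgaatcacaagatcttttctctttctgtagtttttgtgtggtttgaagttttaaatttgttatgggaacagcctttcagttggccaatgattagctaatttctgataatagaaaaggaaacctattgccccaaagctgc
Sod1, chr16:90220512-90220761, plus strand: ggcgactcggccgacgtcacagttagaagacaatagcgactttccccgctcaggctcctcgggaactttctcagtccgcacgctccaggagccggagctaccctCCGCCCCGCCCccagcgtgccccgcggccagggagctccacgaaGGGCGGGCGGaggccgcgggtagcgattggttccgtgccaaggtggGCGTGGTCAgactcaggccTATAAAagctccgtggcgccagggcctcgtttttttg
Sod2, chr17:13007589-13007838, plus strand: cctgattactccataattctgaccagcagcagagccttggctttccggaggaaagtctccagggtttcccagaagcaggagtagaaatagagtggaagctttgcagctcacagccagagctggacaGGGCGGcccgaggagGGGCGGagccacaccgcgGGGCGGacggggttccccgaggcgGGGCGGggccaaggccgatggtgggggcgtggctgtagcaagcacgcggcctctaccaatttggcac

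The windows of Nox4 and Cybb had little in common in these features, while those of Sod1 and Sod2 were closer. Cybb was 34% G and C with no match to any of the 3 motifs, while Nox4 was 67.2% G and C with 1 GC box. Sod1 and Sod2 were 66.4% and 63.6% G and C with 4 GC boxes each, counting overlapping matches in Sod1. The median over all 32851 promoters in the same table was 52.4%, and 32.7% of them hold a GC box. Sod1 alone of the 4 holds an antioxidant response element core, as GCGTGGTCA on the opposite strand, 56 to 48 bases before the start. Among the 7 members with a promoter entry, Gclm was the other with such a match, as GCACCGTCA, and 10.2% of all promoters hold at least 1. A TATA box lies 37 to 32 bases before the Sod1 start, and 12.4% of all promoters hold one. A match to a motif is a description of the letters and not evidence that a factor binds there.

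Nox4 encodes an oxidase that is constitutively active and known to release mainly hydrogen peroxide. It had the largest difference of the 10 genes. Nox4 stood at 7.54, 8.25, 7.34, 8.47 and 7.95 on the banding arrays, against 3.93, 2.87, 3.48 and 5.67 on the sham arrays. Every banding value lay at least 1.66 log2 units above every sham value, and 3 of the 4 sham values lay under the dim level. Nox4 rose by 3.92 ± 0.56 log2 units (SE, limma adjusted p = 0.00138), at least 13.1-fold. The fitted difference depends on dim sham values, and only the bound is a size. The highest sham value was that of sham replicate 4. Without this array every sham value was dim, the bound was the same and Nox4 was called (limma adjusted p = 0.000369).

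The other Nox4 probe set was also called higher. It stood at 6.36, 6.70, 5.66, 7.39 and 6.76 in banding, against 4.11, 3.69, 3.42 and 4.65 in sham, a fitted difference of 2.60 ± 0.39 (limma adjusted p = 0.00157) and a rise of at least 5.18-fold. The sham mean was dim at both probe sets, so these bounds do not rank them. Sham replicate 4 was again the highest sham array and banding replicate 4 the highest banding array at both probe sets. Fibroblasts are among the cells known to express Nox4. On the same arrays 8 of 10 fibroblast markers were called higher and 1 lower. Their summed linear level ran from 138090 to 167251 in banding and from 52139 to 60631 in sham, with no marker at the floor on any array. Banding replicate 4, the highest for Nox4, had the lowest fibroblast sum of its group. Fibroblast markers were not alone in rising. Of 8 smooth muscle markers, 4 were called higher and 0 lower, and of 10 endothelial markers, 6 were called higher and 0 lower. In bulk tissue, more cells of a type and more RNA per cell cannot be told apart, and the part of these markers in the rise of Nox4 was not tested.

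Cybb encodes the catalytic subunit of the phagocyte NADPH oxidase, which assembles with cytosolic subunits when the cell is activated. It rose at all 3 of its probe sets by nearly the same amount. At the brightest, Cybb stood at 9.50, 9.82, 9.94, 9.69 and 10.25 in banding, against 8.04, 8.62, 8.28 and 8.12 in sham. The groups were 0.88 log2 units apart at their nearest values, and Cybb rose by 1.58 ± 0.18 (SE, limma adjusted p = 0.000448), or 2.98-fold. The rises at the other probe sets were 1.49 ± 0.21 (adjusted p = 0.00131) and 1.53 ± 0.19 (adjusted p = 0.00076), or 2.80-fold and 2.88-fold. Banding replicate 5 was the highest banding array at all 3 probe sets and banding replicate 1 the lowest.

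Most markers of macrophages and monocytes rose along with Cybb. Of 14 macrophage and monocyte markers, 12 were called higher in banding and 1 lower. Their summed linear level ran from 27242 to 41917 in banding and from 13835 to 16656 in sham, and none was at the floor on any array. Banding replicate 5 had the highest sum and banding replicate 1 the lowest of their group, the same arrays as for Cybb. Csf1r, the receptor for macrophage colony-stimulating factor, rose by 0.63 ± 0.08 (limma adjusted p = 0.000677) and Cd68, a lysosomal protein of macrophages, by 1.35 ± 0.24 (adjusted p = 0.00363). None of 8 neutrophil markers was called by limma, with 1 at an unadjusted p under 0.05, and 3 or 4 of them lay at the floor on each array. S100a8, an abundant neutrophil protein, averaged 7.01 ± 1.35 (SD, n = 5) in banding and 5.45 ± 1.23 (SD, n = 4) in sham, with overlapping groups. The part of phagocyte number in the rise of Cybb was not tested.

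Among the other NADPH oxidase subunits and relatives, 11 of the 16 listed were measured, and 6 rose, 1 fell and 4 were not called. Of the 11, 4 were dim in both groups, and the median difference of all 11 was 0.15, against 0 over all genes. Ncf1, Ncf4 and Rac2 encode parts of the phagocyte oxidase that join Cybb on activation. Ncf1 rose 3.31-fold (1.73 ± 0.16, limma adjusted p = 0.000212), with values of 7.24 to 7.94 in banding against 5.78 to 6.07 in sham. Ncf4 rose at least 4.09-fold (2.12 ± 0.26, adjusted p = 0.000667). Rac2, a small GTPase of blood cells, rose 2.54-fold (1.35 ± 0.30, adjusted p = 0.0111), but was not called with sham replicate 4 and banding replicate 5 left out (1.23, adjusted p = 0.0666) and was 0.67 as the mean of its probe sets. Hvcn1, the voltage-gated proton channel that balances the oxidase's charge, rose at least 2.07-fold (1.44 ± 0.20, adjusted p = 0.0011).

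The membrane partner and a regulator of Nox4 went opposite ways. These genes were chosen after their values were seen. Cyba, the membrane subunit that both NOX4 and the phagocyte oxidase need, ranged over 9.98 to 10.52 in banding with no value below any in sham, where it ranged over 8.88 to 9.41. It rose by 1.07 ± 0.15 (limma adjusted p = 0.00126). Poldip2, a protein known to raise NOX4 activity, averaged 9.92 ± 0.13 (SD, n = 5) in banding and 10.90 ± 0.10 (SD, n = 4) in sham, and fell by 0.98 log2 units with an SE of 0.08 (adjusted p = 0.000109).

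**Figure D2:**
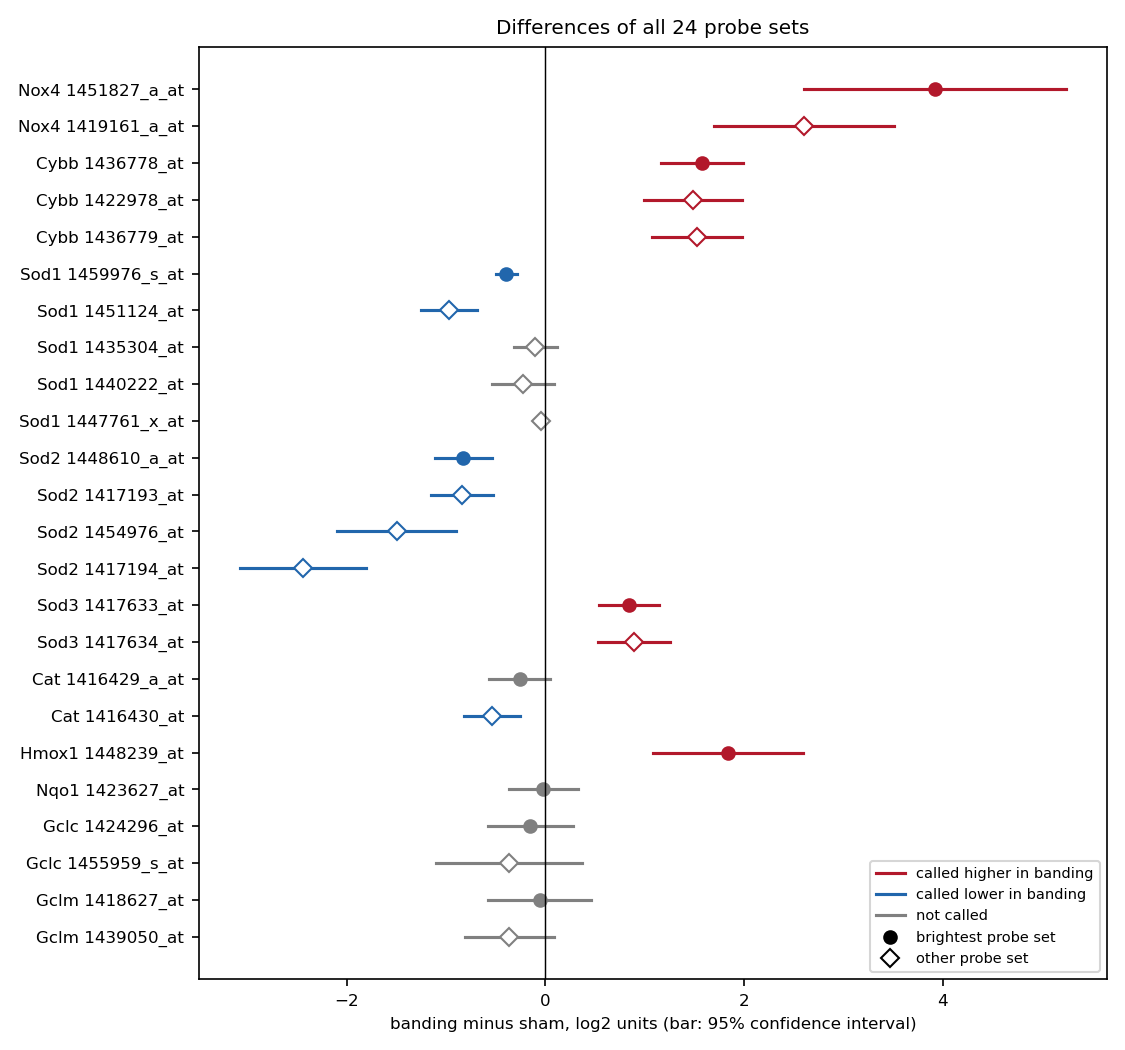
Differences of all 24 probe sets, banding minus sham in log2 units on the horizontal axis, with 95% confidence intervals; filled circles are the brightest probe set of a gene and open diamonds its other probe sets, red called higher, blue called lower and grey not called. All probe sets of Nox4, Cybb and Sod3 lie to the right of 0 and all 4 of Sod2 to the left, and those of Sod2 range from -2.44 to -0.83.

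The 3 superoxide dismutases did not move alike. Sod2 and Sod1 fell and Sod3 rose. Sod2 is the manganese enzyme of the mitochondrial matrix, Sod1 the copper and zinc enzyme of the cytosol, and Sod3 the secreted form, which binds to the extracellular matrix and vessel walls.

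Sod2 was among the brightest transcripts of the set. It stood at 13.67, 13.28, 13.54, 13.12 and 13.16 in banding, against 14.13, 14.17, 14.15 and 14.29 in sham. The banding arrays spread more than the sham arrays and lay wholly below them. Sod2 fell by 0.83 log2 units with an SE of 0.12 (limma adjusted p = 0.00153), or 1.77-fold.

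All 4 Sod2 probe sets were called lower, but by different amounts. The probe set of nearly equal brightness fell by 0.84 (SE 0.13, limma adjusted p = 0.00215). At the third in brightness Sod2 averaged 9.60 ± 0.48 (SD, n = 5) in banding and 11.10 ± 0.21 (SD, n = 4) in sham, and fell 2.83-fold (SE 0.26 log2 units, limma adjusted p = 0.00304). At the dimmest the values were 5.86, 4.91, 5.57, 4.56 and 4.84 in banding, against 7.58, 7.75, 7.45 and 7.57 in sham. This probe set fell by 2.44 (SE 0.27, adjusted p = 0.000442), or 5.43-fold. The size of the fall was thus larger at the dimmer probe sets, and the mean of all 4 gave -1.40. On every one of the 4, banding replicates 1 and 3 were the highest banding arrays.

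Sod1 had 5 probe sets, of which 2 were bright. At the brightest Sod1 stood at 12.40, 12.54, 12.58, 12.46 and 12.46 in banding, against 12.96, 12.80, 12.89 and 12.89 in sham. The groups were 0.22 log2 units apart, and Sod1 fell by 0.40 (SE 0.05, limma adjusted p = 0.000502), or 1.32-fold. At the next the values were 11.76, 11.66, 11.77, 11.33 and 11.36 in banding, against 12.40, 12.50, 12.70 and 12.60 in sham, a fall of 0.97 (SE 0.12, adjusted p = 0.000705), or 1.96-fold. The other probe sets differed by -0.10, -0.23 and -0.05 and were not called. They were far dimmer, at means of at most 7.32 in sham, and the dimmest lay at the floor on 7 of 9 arrays.

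Ventricular cardiomyocyte transcripts moved in the same direction as Sod1 and Sod2. Of 12 such markers, 7 were called lower and none higher, beside 31.4% called lower among genes above the dim level in a group. The median difference of the 12 markers was -0.26. Their summed linear level ran from 442797 to 522810 in banding and from 554616 to 583272 in sham. None was at the floor, and their part in the falls was not tested. Without sham replicate 4 and banding replicate 5 the falls were 0.74 for Sod2 (limma adjusted p = 0.014) and 0.38 for Sod1 (adjusted p = 0.00733).

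Sod3 stood at 9.36, 9.69, 9.23, 9.20 and 9.15 in banding, against 8.53, 8.31, 8.70 and 8.41 in sham. All banding arrays lay above all sham arrays, and Sod3 rose by 0.84 ± 0.13 (SE, limma adjusted p = 0.00193), or 1.79-fold. Its dimmer probe set rose by 0.89 ± 0.16 (adjusted p = 0.00344), with values of 6.85 to 7.23 in banding and 5.80 to 6.52 in sham. Banding replicate 2 was the highest array at both. Genes of copper and metal delivery to the dismutases form a list of 9, of which 3 rose, 0 fell and 6 were not called. Atp7a, the copper pump of the secretory pathway that is known to load Sod3, rose 2.87-fold (1.52 ± 0.18, adjusted p = 0.000614), with 8.55 to 8.91 in banding and 6.77 to 7.70 in sham. Atox1, which carries copper to that pump, rose 1.76-fold (0.82 ± 0.10, adjusted p = 0.000637), but was not called on probe sets free of cross-hybridisation marks (0.42, adjusted p = 0.111). Mt2, a metallothionein, rose 2.48-fold (1.31 ± 0.28, adjusted p = 0.00944), but was not called with sham replicate 4 and banding replicate 5 left out (1.30, adjusted p = 0.0582). Mt1, another metallothionein, and Slc31a1, a copper importer, were not called (0.05 and -0.12, adjusted p = 0.972 and 0.322).

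Catalase gave different calls at its 2 probe sets. At the brightest, Cat stood at 12.03, 12.25, 12.36, 12.19 and 12.28 in banding, against 12.67, 12.32, 12.19 and 12.76 in sham. The groups overlapped, and the difference of -0.26 (95% confidence interval -0.57 to 0.05) was not called (limma adjusted p = 0.202). At the other the values were 11.91, 11.99, 12.05, 11.83 and 11.69 in banding, against 12.49, 12.38, 12.15 and 12.71 in sham. The groups were 0.10 log2 units apart and Cat was called lower there, by 0.54 (SE 0.12, adjusted p = 0.0116). Without sham replicate 4 the differences were -0.17 (adjusted p = 0.395) and -0.45 (adjusted p = 0.0215). Over all alternatives for the gene, the adjusted p of Cat ran from 0.013 to 0.474. These include the mean of its probe sets and the dimmer probe set taken in place of the brightest.

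Liver is known to express Cat and the glutathione genes at high levels. The mean of the 15 liver markers was 9.99, 9.52, 8.62 and 12.66 on sham replicates 1 to 4, and Cat stood in this same order at both probe sets within the sham group. Albumin transcript, Alb, was at 12.73, 12.32, 11.45 and 14.85 on these arrays, and at 2.34, 2.71, 3.31, 3.08 and 8.51 on the banding arrays. Within the banding group Cat did not keep the order of the liver markers. Banding replicate 5, with the highest liver mean there (4.77), had the lowest Cat at the dimmer probe set (11.69). Banding replicate 3, with the lowest liver mean (2.89), had the highest Cat at the brightest (12.36). The part of liver transcripts in the level of Cat was not tested.

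**Figure D3:**
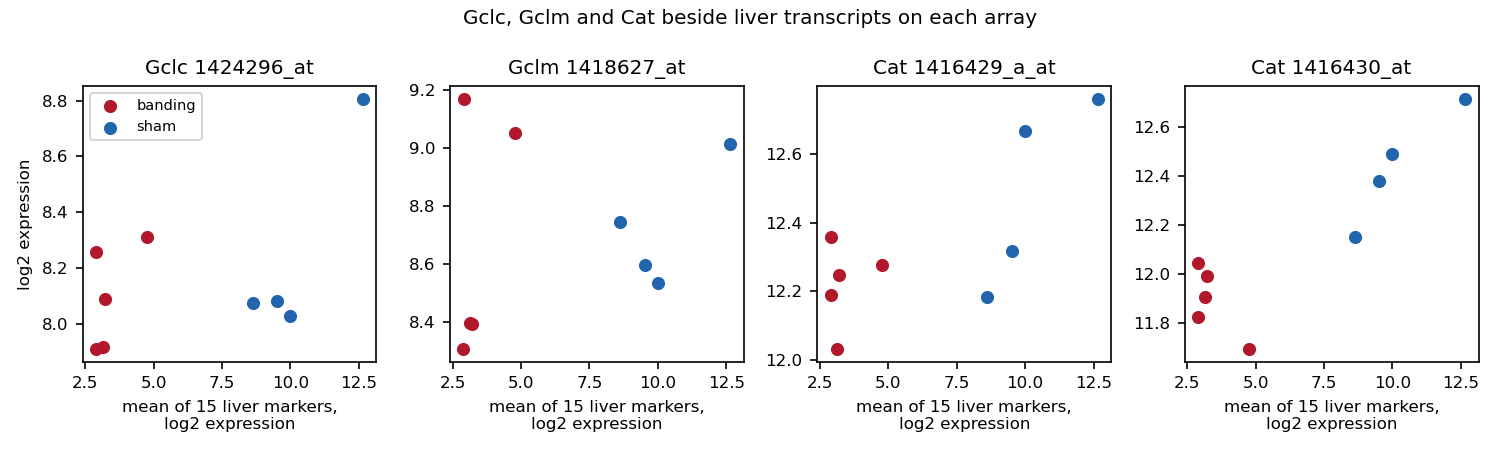
Log2 expression of Gclc, Gclm and both Cat probe sets on the vertical axes against the mean log2 level of 15 liver markers on each array, banding in red (5 arrays) and sham in blue (4 arrays). Sham replicate 4, at a liver mean of 12.66, is the rightmost point and the highest sham array in every panel.

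Hmox1 was the only NRF2 target of the 4 that was called. Its enzyme splits haem into biliverdin, iron and carbon monoxide. Hmox1 stood at 7.75, 7.89, 8.27, 8.76 and 9.26 in banding, against 6.24, 6.57, 6.80 and 6.56 in sham. The banding arrays spread over 1.5 log2 units and all lay above the sham arrays. Hmox1 rose by 1.84 ± 0.32 (SE, limma adjusted p = 0.00354), or 3.58-fold, and by 1.63 with sham replicate 4 and banding replicate 5 left out (adjusted p = 0.0113). Macrophages are among the cells known to make Hmox1. Banding replicate 5 was highest and banding replicate 1 lowest for Hmox1, as for Cybb and the summed macrophage markers. The arrays between did not keep one order. Banding replicate 4, next highest for Hmox1, had a macrophage sum of 30503, below banding replicates 2 and 3 at 34590 and 36452. The part of macrophages in the rise of Hmox1 was not tested.

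Nqo1 reduces quinones by transfer of an electron pair. It stood at 8.77, 9.03, 8.86, 9.30 and 9.35 in banding, against 8.85, 9.11, 9.27 and 9.09 in sham. The groups overlapped almost wholly, with a difference of -0.02 (95% confidence interval -0.36 to 0.32, limma adjusted p = 1). A change of more than about 0.36 log2 units in either direction lies outside this interval.

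Gclc encodes the catalytic and Gclm the modifier subunit of glutamate-cysteine ligase. Gclc stood at 7.92, 8.09, 7.91, 8.26 and 8.31 in banding, against 8.03, 8.08, 8.07 and 8.81 in sham. Sham replicate 4 lay apart from the other sham arrays, which sat within the banding range. The difference was -0.15 (95% confidence interval -0.58 to 0.28, limma adjusted p = 0.621), and it was 0.03 without sham replicate 4. The other Gclc probe set also had its highest value there, at 8.90, and differed by -0.37 (interval -1.10 to 0.37, adjusted p = 0.474).

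Gclm stood at 8.40, 8.39, 8.31, 9.17 and 9.05 in banding, against 8.54, 8.60, 8.74 and 9.02 in sham. Banding replicates 4 and 5 lay above every sham array and the other banding arrays below, so the groups overlapped at both ends. The difference was -0.06 (95% confidence interval -0.58 to 0.46, limma adjusted p = 1). Its other probe set differed by -0.36 (interval -0.81 to 0.08, adjusted p = 0.221).

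Of 9 regulators of the NRF2 system, 2 rose, 3 fell and 4 were not called. Nfe2l2, which encodes NRF2, averaged 10.66 ± 0.05 (SD, n = 5) in banding and 10.56 ± 0.09 (SD, n = 4) in sham and was not called (0.10, limma adjusted p = 0.164), nor was Sqstm1, a cargo receptor of autophagy (0.09, adjusted p = 0.474). Maff, a small Maf protein that pairs with NRF2, rose 2.46-fold (1.30 ± 0.30, adjusted p = 0.0129). Nfe2l1, a relative of NRF2 that drives proteasome genes, fell by 0.95 (SE 0.09, adjusted p = 0.000219). Cul3, the scaffold of the ligase that marks NRF2 for destruction, fell by 0.43 (SE 0.08, adjusted p = 0.00549), or by 1.01 as the mean of its probe sets. Mafg fell by 0.34 (SE 0.09, adjusted p = 0.0235), a call that was lost without sham replicate 2, 3 or 4 or banding replicate 4, with an adjusted p of up to 0.0665, and without sham replicate 4 and banding replicate 5 together (adjusted p = 0.0891).

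Haem and iron genes went the other way from Hmox1. Of 12 measured, 0 rose, 9 fell and 3 were not called, with a median difference of -0.31. Slc40a1, the iron exporter ferroportin, stood at 9.26, 8.98, 9.28, 9.12 and 9.28 in banding, against 10.60, 10.37, 10.50 and 10.59 in sham, and fell by 1.33 (SE 0.08, limma adjusted p = 4.11e-05). Fech, the last enzyme of haem synthesis, fell by 0.97 (SE 0.07, adjusted p = 6.95e-05), Hfe, an iron sensor, by 0.90 (SE 0.09, adjusted p = 0.000348) and Cd163, the macrophage receptor for haemoglobin, by 0.99 (SE 0.19, adjusted p = 0.00533). Tfrc, the transferrin receptor, and Cp, the plasma copper oxidase, were not called (-0.18 and -0.01, adjusted p = 0.63 and 1).

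**Figure D4:**
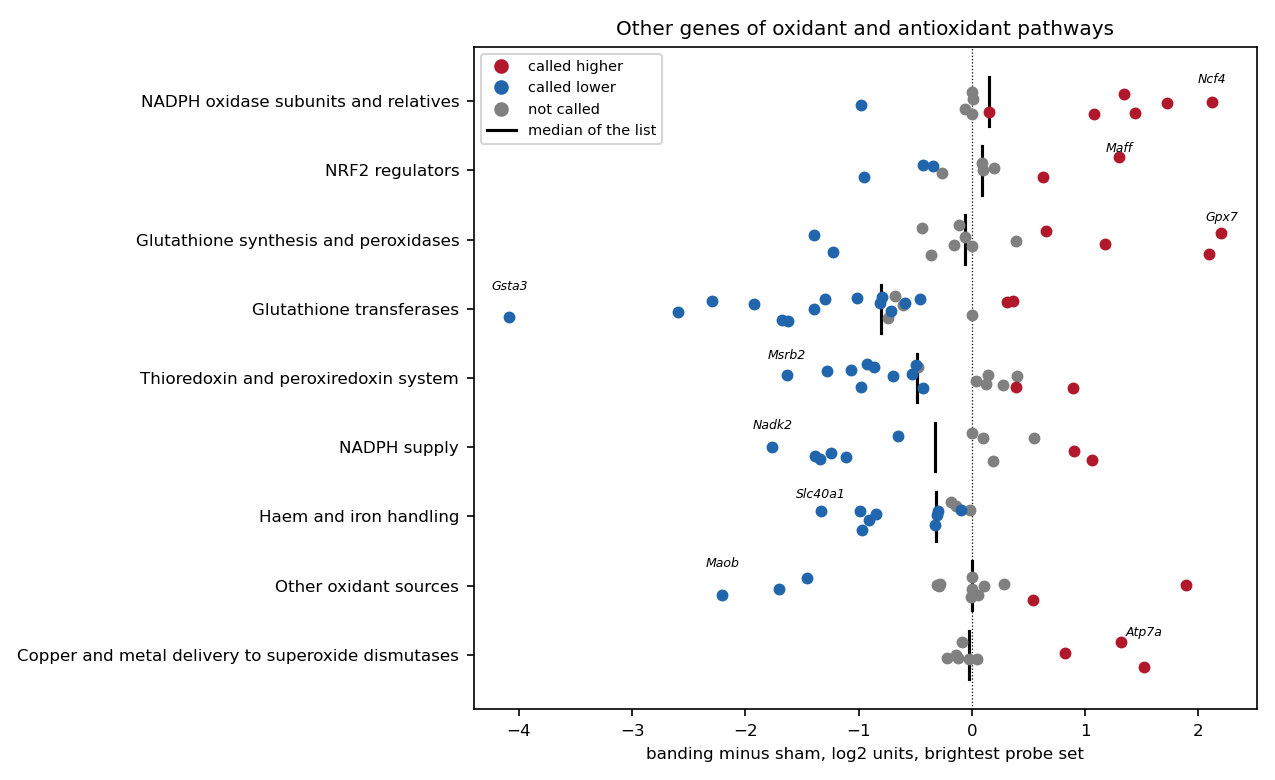
Differences of the other pathway genes at their brightest probe set, banding minus sham in log2 units, 1 row for each list; red points were called higher, blue called lower and grey not called, black bars are list medians and the named gene in each row is the called gene with the largest difference. The glutathione transferases reach furthest to the left, with a median of -0.80, and 6 of 11 oxidase subunits are red.

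Glutathione is made by Gclc and Gclm and used by peroxidases, which reduce peroxides, and by transferases, which attach it to other molecules. Of 13 measured genes of glutathione synthesis and peroxidases, 4 rose, 2 fell and 7 were not called, with a median of -0.06. Gpx3, the peroxidase secreted into plasma, stood at 13.30, 13.62, 12.84, 13.80 and 13.74 in banding, against 11.23, 11.35, 11.44 and 11.46 in sham, and rose 4.26-fold (2.09 ± 0.20, limma adjusted p = 0.000245). Gpx7, a peroxidase of the endoplasmic reticulum, rose 4.60-fold (2.20 ± 0.12, adjusted p = 3.5e-05), with 9.57 to 10.02 in banding and 7.31 to 7.72 in sham. Chac1 and Ggct, which break down glutathione and its products, fell by 1.39 (SE 0.28, adjusted p = 0.00712) and 1.23 (SE 0.10, adjusted p = 0.000117). Ggct was not called with probe sets ending in _a_at, _s_at or _x_at left out (-0.46, adjusted p = 0.0846). Gpx1, the cytosolic peroxidase, was among those that rose (0.65 ± 0.19, adjusted p = 0.0369) and is named after its values were seen. Its call was lost on leaving out any single array but sham replicate 4, with an adjusted p of 0.0514 to 0.0977, and sham replicate 4 lay at 13.17 among banding values of 13.05 to 13.36. Slc3a2, a subunit of the cystine transporter, was not called (0.39, adjusted p = 0.0964). Gpx4, which protects membranes from lipid peroxides, was not called (-0.16, adjusted p = 0.108), although its groups did not overlap. It was called lower by the mean over its probe sets (-0.30, adjusted p = 0.0156).

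Of 20 measured glutathione transferases, 2 rose, 14 fell and 4 were not called, and 4 were dim in both groups. The median difference was -0.80. Gsta3 averaged 4.24 ± 0.35 (SD, n = 5) in banding and 8.32 ± 1.27 (SD, n = 4) in sham, a difference of -4.08 ± 0.57 (SE, limma adjusted p = 0.00118), with 3 of the 5 banding values under the dim level. Its sham values of 8.08, 7.89, 7.18 and 10.13 stood in the order of the liver markers, and without sham replicate 4 the difference was -3.48 (adjusted p = 0.000415). Gstk1, a transferase of mitochondria and peroxisomes, stood at 11.52, 11.54, 11.59 and 11.53 in sham, with no excess on sham replicate 4, and at 8.31 to 9.69 in banding. It fell by 2.59 (SE 0.27, adjusted p = 0.000359). All 4 sham arrays held liver transcripts, and the part of these in the falls of Gsta3 and Gstk1 was not tested. Gstm7 fell by 2.29 (SE 0.23, adjusted p = 0.000283) and Gstm1 by 1.93 (SE 0.20, adjusted p = 0.000331). Genes of the Gstm family are close copies whose probe sets may share targets, and with the mean of all probe sets the differences were -1.15 and -1.32 (adjusted p = 0.000233 and 0.000196).

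Of 18 measured genes of the thioredoxin and peroxiredoxin system, 2 rose, 10 fell and 6 were not called, with a median of -0.49. Prdx3, Txn2 and Txnrd2 form the mitochondrial branch. Prdx3 stood at 12.47, 12.03, 12.28, 12.04 and 12.17 in banding, against 13.21, 13.24, 13.22 and 13.03 in sham, and fell by 0.98 (SE 0.10, limma adjusted p = 0.000293). Txn2 fell by 1.28 (SE 0.14, adjusted p = 0.000443) and Txnrd2 by 1.07 (SE 0.08, adjusted p = 0.000114). Msrb2, a mitochondrial enzyme that repairs oxidised methionine, fell by 1.63 (SE 0.23, adjusted p = 0.00124). The cytosolic Prdx2, named after its values were seen, also fell, by 0.50 (SE 0.06, adjusted p = 0.00065). The 2 that rose, named likewise, were the cytosolic Txn1 (0.39 ± 0.09, adjusted p = 0.0104) and Prdx4 of the endoplasmic reticulum (0.89 ± 0.13, adjusted p = 0.00138). Txnip, which inhibits thioredoxin, and Sesn1, a sestrin, were not called (-0.48 and 0.39, adjusted p = 0.333 and 0.0746).

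NADPH is the electron donor of oxidases and of the glutathione and thioredoxin reductases. Of 12 measured genes of NADPH supply, 2 rose, 6 fell and 4 were not called, with a median of -0.33. Pgd and Tkt of the pentose phosphate pathway, named after their values were seen, rose by 0.90 ± 0.10 (limma adjusted p = 0.000428) and 1.06 ± 0.12 (adjusted p = 0.000543). Enzymes of both mitochondria and cytosol fell. The mitochondrial Nadk2, Me3 and Idh2 fell by 1.76 (SE 0.16, adjusted p = 0.000205), 1.39 (SE 0.11, adjusted p = 0.00012) and 1.34 (SE 0.19, adjusted p = 0.00125). The cytosolic Me1 and Idh1, also named after their values were seen, fell by 1.11 (SE 0.06, adjusted p = 2.9e-05) and 0.65 (SE 0.14, adjusted p = 0.00793). Nnt, a mitochondrial enzyme that makes NADPH, stood at 12.93, 12.48, 12.89, 12.06 and 12.27 in banding, against 13.80, 14.02, 13.51 and 13.74 in sham, and fell by 1.25 (SE 0.21, limma adjusted p = 0.00275), or by 0.50 as the mean of its probe sets. The C57BL/6J strain is known for a deletion inside Nnt, while this probe set was bright on every array. Whether it lies outside the deleted part was not analysed here, so it does not check the strain. With the mean of its probe sets Idh2 fell by 0.67. It was not called with probe sets ending in _a_at, _s_at or _x_at left out (-0.01, adjusted p = 0.282). Taldo1 and Pgls of the pentose phosphate pathway were not called (0.10 and -0.003, adjusted p = 0.731 and 1).

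Of 14 measured genes of other oxidant sources, 2 rose, 3 fell and 9 were not called, and 5 were dim in both groups. Maob, a monoamine oxidase of the outer mitochondrial membrane, stood at 9.94, 9.22, 9.68, 8.56 and 9.28 in banding, against 11.45, 11.57, 11.51 and 11.63 in sham, and fell by 2.20 (SE 0.26, limma adjusted p = 0.000576). Alox5, a lipoxygenase, fell by 1.70 (SE 0.21, adjusted p = 0.000713) and Aox1, an aldehyde oxidase, by 1.45 (SE 0.24, adjusted p = 0.00265). Ptgs2, the inducible cyclooxygenase, rose by 1.89 ± 0.34 (adjusted p = 0.00371), or by 1.07 as the mean of its probe sets. Xdh, the xanthine oxidoreductase, and Ero1a, an oxidase of the endoplasmic reticulum, were not called (-0.31 and 0.29, adjusted p = 0.102 and 0.136).

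Over all 118 pathway genes measured besides the members, 23 rose, 48 fell and 47 were not called, and 17 of the 118 were dim in both groups. The background was 29% higher and 31.4% lower among genes above the dim level in a group, and 17.9% higher and 19.4% lower among all genes. The median difference of the 118 was -0.17, against 0 over all genes.

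The genes whose levels followed a member most closely over the 9 arrays were found among 10741 genes above the dim level, by Pearson correlation. These values are descriptions that rest largely on the gap between the groups. For Cybb they were Fcgr1, Fermt3 and Sh3bp2, with r of 0.993, 0.993 and 0.992. For Nox4 they were B4galnt1, Kctd15 and Ecrg4, with r of 0.993, 0.991 and 0.990. For Hmox1 they were Ier3, Prc1 and Gpr137b-ps, with r of 0.986, 0.984 and 0.984. For Cat, which was not called, they were Tecpr2, Lig4 and H6pd, with lower r of 0.946, 0.944 and 0.925.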

How the data were processed

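The table deposited by the authors holds log2 expression, 1 column for each array. Its processing notes from the submitters list RMA and GCRMA, methods that correct background and normalise arrays, without version, role or order. The log2 scale was inferred from values of 2.198 to 16.43. Left out were 64 control probe sets, 9160 that name no gene and 932 that name several, of 45101. Banding (5 arrays) was set against sham (4 arrays) with limma 3.58.1 (lmFit and eBayes, R 4.3.3), two-sided, with no covariate and with Benjamini-Hochberg adjustment over 34945 probe sets. Each gene was represented by its brightest probe set, judged on the mean of the 9 arrays. The fit was tested on simulated data. The number of arrays limits the precision.

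The members and gene lists were chosen with earlier results of these data known, and no list was tested as a set. All member probe sets are covered. From each pathway list the text may name up to 4 called genes with the largest differences, groups apart and 1 group above the dim level, and up to 2 uncalled genes of highest mean. It also may name the 3 brightest genes of each marker list with Alb, Cd68, Csf1r and S100a8, and the 3 genes most correlated with Hmox1, Nox4, Cybb and Cat. Noxo1, Duox1, Gstm3 and Gsta2, dim in both groups, and some markers were not described. Other named genes are marked as such. Listed genes without a single-gene probe set were not analysed here. Alternatives changed the probe set summary, the dim filter, the normalisation, the eBayes settings, array weights, the replicate block and the arrays included. The alternative without cross-hybridising probe sets left out all with names ending in _a_at, _s_at or _x_at. The ending alone decided this, and binding to other genes was not tested. Same-numbered arrays of the groups showed correlations of -0.04 to 0.02 in their deviations from group means, so the numbers were not treated as pairs.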

Additional observations from a re-analysis of the deposited data

Results flagged for a closer look

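Among 164 groups of 4 or 5 arrays, 1 array lay apart from the rest of its group by Dixon's criterion in 9 cases. Chance flags about 1 group in 20, so this count is near the chance level. Sham replicate 4 stood high for Gclc at 8.81 and for Idh1 at 11.42, and this was also the array with the most liver transcripts. It stood low within the sham group for Gstm7 at 9.02 and for Prdx3 at 13.03. Sham replicate 3 stood low for Sod2 at one of the probe sets of middle brightness, at 10.79. Sham replicate 1 stood low for Fech at 11.53 and for Ncf4 at 3.51, where the other 3 sham arrays share the value 4.31. The Ncf4 value of 3.51 is under the dim level. Banding replicate 3 stood high for Sesn1 at 12.13 and banding replicate 1 for Prdx2 at 13.15. The causes were not tested.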

How the results depend on the processing

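The 10 genes gave 199 values over the alternatives, and 188 kept their direction and their side of the threshold, none lost a call, 3 gained one (Cat) and 8 changed sign. The 6 called genes kept their call in every alternative that could give a value. Leaving out 1 array at a time gave 6 called genes, 15 called member probe sets, 64 to 70 called pathway genes against 71, and 9430 to 10356 called probe sets against 10960. The sign changes were all in uncalled genes on leaving out an array, with differences from -0.10 to 0.054 for Nqo1, from -0.22 to 0.035 for Gclc and from -0.19 to 0.038 for Gclm. Cat was called at its brightest probe set with arrays centred on their medians (-0.39), and also by the mean over its probe sets (-0.40). Without cross-hybridising probe sets the call was that of its dimmer probe set (-0.54), since the brightest was left out there. Centring on medians called 25161 probe sets, of which 19.9% were higher in banding against 48.7% in the main comparison, since it moves values that all lie at the floor, and it shifted the median difference of genes above the dim level from -0.01 to -0.14. Calls were gained with centring by Gpx4, Slc31a1, Xdh, the dimmer Gclm probe set and a pair of the less bright Sod1 probe sets. They were also gained by the mean over probe sets for Cp, Ero1a, Gpx4 and Slc31a1, and above the dim level alone for Sesn1, Slc3a2 and Xdh. Quantile normalisation gained a call for Nfe2l2, as did leaving out banding replicate 1 for Slc3a2 or sham replicate 1 for Sesn1. The adjusted p of these gained calls ran from 0.00739 to 0.0453. Among uncalled pathway genes with small differences, the sign also turned with centring for Mt1 (-0.081), Nfe2l2 (-0.026), Sqstm1 (-0.042) and Taldo1 (-0.029), with the mean over probe sets for Mt1 (-0.35), Nfe2l2 (-0.026) and Sesn1 (-0.093), without cross-hybridising probe sets for Mt1 (-0.74), Sesn1 (-0.17) and Sqstm1 (-0.070), with quantile normalisation for Cp (0.0041) and Pgls (0.0045), with the replicate block for Taldo1 (-0.0026), and without sham replicate 4 and banding replicate 5 for Cp (0.12) and Taldo1 (-0.0085). Leaving out 1 array gave -0.20 to 0.17 for Cp, -0.033 to 0.18 for Mt1, -0.052 to 0.070 for Pgls and -0.0026 to 0.17 for Taldo1. With the replicate block 7406 probe sets, 12 member probe sets, 6 member genes and 51 pathway genes were called, and both Sod2 probe sets of middle brightness and the dimmer Cat probe set lost their calls (adjusted p = 0.0519, 0.0581 and 0.138). Maff, Cul3, Nnt, Cd163, Mt2, Gpx1 and Idh1 also lost theirs, with adjusted p from 0.0541 to 0.136. Leaving out sham replicate 4 and banding replicate 5 lost Mafg, Mt2 and Rac2 (adjusted p = 0.0891, 0.0582 and 0.0666). Both Nox4 probe sets end in _a_at and were left out by name in the alternative without cross-hybridising probe sets, which gave no value for Nox4. Whether they bind other genes was not tested. Values under the dim level carry no order, and folds against them are bounds.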

Other observations

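Some probe sets held exactly the same value on several arrays. A Sod1 probe set of lower brightness, though above the dim level, read 7.30 on 4 arrays, 2 of banding and 2 of sham. Another, also above the dim level, read 5.94 on 3. Of 17112 probe sets above the dim level on all arrays, 5569 (32.5%) had a value shared by at least 2 arrays and 1377 (8.05%) by at least 4. The bright Sod1 probe sets and those of the other members held no repeated value, and how these shared values arose was not tested.

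Across the 10 genes at their brightest probe set, banding replicate 5 was the highest banding array for 4 (Hmox1, Nqo1, Gclc and Cybb) and banding replicate 1 the lowest for 5 (Hmox1, Nqo1, Sod1, Cat and Cybb). Among sham arrays, replicate 4 was the highest for 5 (Gclc, Gclm, Sod2, Cat and Nox4) and replicate 1 the lowest for 6 (Hmox1, Nqo1, Gclc, Gclm, Sod2 and Cybb).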
